A study of Mus musculus with 18 samples.

Results

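The immediate early transcription factors described here are 10 genes, taken by symbol from the whole gene table: Egr1, the AP-1 subunit genes Fos, Fosb, Fosl1, Fosl2, Jun, Junb and Jund, the related bZIP gene Atf3, and Ier2. All 10 were among the 43629 genes of the table, and 9 of them were among the 11964 genes with enough counts to be tested. Only Fosb was not, with 0 to 10 counts per library. They were measured by 3′ mRNA sequencing of AT3 cells, a single mouse mammary carcinoma line that the study uses as a model of triple-negative breast cancer, in 6 conditions of 3 libraries each. Cells were given DMSO vehicle, A-241 (250 nM) or A-485 (1000 nM), which are chemically distinct inhibitors of the catalytic lysine acetyltransferase domain of P300 and CBP, and 1 h later either recombinant murine IFNγ (1 ng/mL) or no cytokine for a further 2 h. The conditions are called DMSO, A-241, A-485, IFNγ, A-241+IFNγ and A-485+IFNγ, every culture was collected after 3 h in total, and all but the inhibitor-treated ones received DMSO. The inhibitor doses in the combined conditions come from the study's methods, since the labels do not give them. The triplicates are biological by the labels and technical by the methods. Here n counts libraries, and the p-values measure the spread between libraries, which may be technical.

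Immediate early genes are those that a cell transcribes within minutes of a signal, from promoters that are already accessible and without the need for new protein. EGR1 is a zinc finger factor that binds GC-rich sites, and FOS and JUN family proteins pair through their leucine zippers to form AP-1, whose composition varies with the signal and with time. ATF3 is a stress-induced bZIP protein that also dimerises with JUN proteins, and IER2 is a small nuclear protein that is induced with them. P300 and CBP are coactivators that acetylate histone H3 at lysine 27 at enhancers and promoters and are recruited by many factors, AP-1 and CREB among them.

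The promoters of Fos, Jun, Atf3 and Fosl2 are shown because these genes, with Egr1, had the changes that passed the test in the full data or without the 2 libraries that stood apart. RefSeq windows (GRCm38.p6, 250 bases before to 50 bases after a transcript start, written 5′ to 3′ on the gene's strand) were matched for 7 of the 10 genes, and Egr1, Fosl1 and Ier2 had no match. The windows lie at chr12:85473640-85473939 on the plus strand for Fos, chr4:95052173-95052472 on the minus strand for Jun, chr1:191183284-191183583 on the minus strand for Atf3 and chr5:32136222-32136521 on the plus strand for Fosl2. Those of Atf3 and Fosl2 belong to starts inside the annotated gene, and that of Jund, not shown but among the 7 searched, lies upstream of the gene as annotated by GENCODE. Capitals mark the TATAAA of Fos, which begins 33 bases before the start, the CCAAT of Jun, which begins 65 bases before it, the reverse complement of CCAAT in Atf3, which begins 5 bases after it, and the EGR site of Fosl2, which begins 79 bases before it.
Fos: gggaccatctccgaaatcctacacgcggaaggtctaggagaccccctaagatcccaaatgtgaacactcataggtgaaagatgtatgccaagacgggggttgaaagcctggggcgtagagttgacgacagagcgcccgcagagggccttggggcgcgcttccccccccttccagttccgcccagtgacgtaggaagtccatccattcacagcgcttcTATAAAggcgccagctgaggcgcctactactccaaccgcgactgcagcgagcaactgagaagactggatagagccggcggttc
Jun: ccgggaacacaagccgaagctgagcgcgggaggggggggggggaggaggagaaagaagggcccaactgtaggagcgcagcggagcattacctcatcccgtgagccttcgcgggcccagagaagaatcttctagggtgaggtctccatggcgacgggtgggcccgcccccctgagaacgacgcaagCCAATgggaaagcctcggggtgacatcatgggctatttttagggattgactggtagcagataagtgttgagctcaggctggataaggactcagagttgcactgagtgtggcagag
Atf3: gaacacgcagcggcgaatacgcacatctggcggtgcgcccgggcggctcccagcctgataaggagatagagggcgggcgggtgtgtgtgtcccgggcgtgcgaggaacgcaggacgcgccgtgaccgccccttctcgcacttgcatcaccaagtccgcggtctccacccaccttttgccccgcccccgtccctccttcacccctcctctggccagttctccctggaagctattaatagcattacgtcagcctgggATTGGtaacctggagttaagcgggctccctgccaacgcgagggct
Fosl2: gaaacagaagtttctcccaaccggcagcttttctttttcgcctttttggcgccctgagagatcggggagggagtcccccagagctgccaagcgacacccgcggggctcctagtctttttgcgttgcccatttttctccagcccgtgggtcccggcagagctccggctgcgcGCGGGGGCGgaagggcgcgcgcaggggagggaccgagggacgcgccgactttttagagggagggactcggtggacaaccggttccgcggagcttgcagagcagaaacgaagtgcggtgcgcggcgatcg

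Searched on both strands of the 7 windows, the letters GCGNGGGCG of an EGR site were found in Fosl2 and Fosb, that is 2 of 7, against 5.55% of 32851 RefSeq promoter windows of the same length. These 2 windows were 64.7% and 68.3% G or C against a median of 52.7% over all windows, so the share for this GC-rich site is not matched. TATAAA was found in Fos and Junb against 13.6% of all windows, and CCAAT in Jun, Junb and Atf3 against 37.4%. The remaining motifs searched were the CArG box (1.63% of all windows), the CRE TGACGTCA (1.79%), the AP-1 site TGANTCA (7.81%) and the GAS element TTCNNNGAA (8.3%), and these exact letters were found in 0 of the 7. Near matches and sites outside the windows were not searched, so 0 of 7 does not show that these genes lack such elements. These matches were placed in windows and not at tested sites, and no marked match overlapped another.

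Library totals ranged from 3417167 to 7856830 counts. DMSO replicate 3 and IFNγ replicate 2 stood apart from the rest: Gm42418, a gene that overlaps ribosomal RNA, took 20.1% and 23.0% of their counts against 7.11% to 16.2% elsewhere, and their root mean square deviation from the group mean was 0.731 and 0.755 (log2 scale) against 0.226 to 0.512. Values that rest on them are given with and without both. The pair was picked from these same data, and leaving it out keeps only DMSO replicates 1 and 2 and IFNγ replicates 1 and 3. The share of all genes called then rose, for A-241 against DMSO from 4.35% to 8.13%, so p-values without the pair may be too small. Of 7 epithelial markers, Krt8, Krt18, Epcam, Cdh1, Krt5 and Krt14 had at least 153 counts in every library while Krt19 had at most 1. In CPM, the normalised read count relative to the library total scaled by TMM factors, the leukocyte marker Ptprc reached 17.0 CPM in A-485 replicate 3 and Cd3e, Cd68 and Itgam at most 6.55 CPM in any library, while the macrophage marker Adgre1 and the endothelial marker Cdh5 were at 0 in all 18. Summed levels with DMSO and with A-241 were 1523 to 1774 and 982 to 1026 CPM for the epithelial markers, and 688 to 747 and 429 to 483 CPM for 4 mesenchymal markers. Of these Krt14 (log2 fold change -1.50), Krt18 (-0.84) and the mesenchymal Fn1 (-0.65) were called lower by edgeR, Epcam (0.02) and Cdh1 (-0.32) were not called, and the part of this in the results below was not tested. In such bulk samples, fewer cells of a type and less RNA per cell cannot be told apart.

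**Figure D1:**
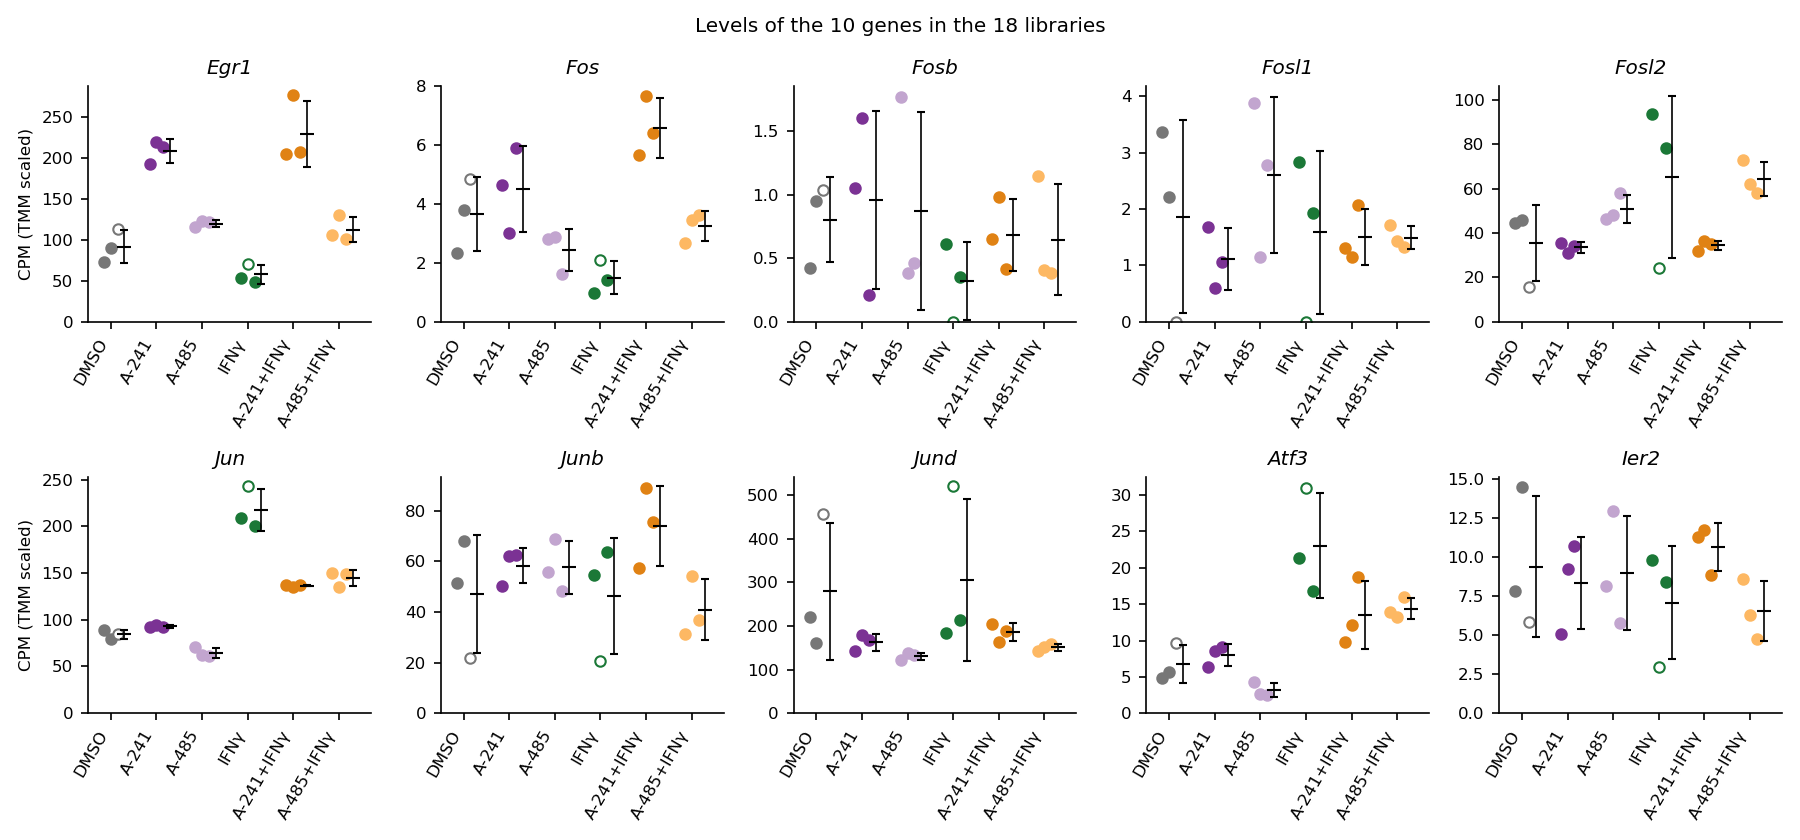
Levels of the 10 genes (y axes, CPM scaled by TMM factors, each panel with its own range from 0) in the 6 conditions (x axes). Points are libraries, with DMSO replicate 3 and IFNγ replicate 2 open, and black bars are the mean ± SD of 3; Egr1 lay between 192 and 276 CPM in all 6 libraries with A-241 and at or below 130.1 CPM in the other 12.

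Egr1 (ENSMUSG00000038418, chromosome 18, 34859823 to 34864984 in GRCm38) rose with A-241, both without and with IFNγ. It was at 72.7, 89.7 and 113 in the DMSO libraries and at 192, 219 and 213 in the A-241 libraries, so that the conditions did not overlap. This was a log2 fold change of 1.18 ± 0.19 (SE), or 2.27-fold (edgeR quasi-likelihood test over all genes tested, adjusted p = 0.000796). Egr1 alone of the 9 genes was called at an adjusted p under 0.01 in this comparison, in which 4.35% of all genes were called and 0.827% were called higher. In the presence of IFNγ the increase was larger in value: Egr1 was at 53.8, 70.9 and 48.6 CPM with IFNγ alone and at 204, 276 and 206 CPM with A-241+IFNγ. The log2 fold change was 1.99 ± 0.20, or 3.97-fold (edgeR adjusted p = 6.3e-06). These comparisons share no library. Egr1 levels were 208 ± 14.3 CPM (SD, n = 3) with A-241 and 229 ± 40.8 CPM with A-241+IFNγ, a difference of 0.14 on the log2 scale with a 95% interval from -0.26 to 0.53. Without IFNγ replicate 2 and DMSO replicate 3, the increases were 1.32 (edgeR adjusted p = 9.1e-06, with 8.13% of all genes called) and 2.15 (edgeR adjusted p = 2.0e-08). Both calls held in each fit that left out 1 library. When only the 6 libraries compared were fitted, the increase without IFNγ missed the threshold (1.12, edgeR adjusted p = 0.0457).

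IFNγ alone had the lowest Egr1 level of the 6 conditions. All 3 IFNγ libraries were below all 3 DMSO libraries, with a log2 fold change of -0.67 ± 0.19 that did not pass the test (edgeR adjusted p = 0.126, and 0.0291 without the 2 libraries). With A-485, Egr1 was at 115, 123 and 121 CPM, above every DMSO library. The corresponding log2 fold change of 0.39 ± 0.19 was not called (edgeR adjusted p = 0.426). With A-485+IFNγ it was at 106, 130.1 and 101 CPM, and the log2 fold change from IFNγ was 0.96 ± 0.19. This missed the threshold (edgeR adjusted p = 0.0161) but passed it without IFNγ replicate 2 (1.12, edgeR adjusted p = 0.00655) and without both libraries (1.12, edgeR adjusted p = 0.000219). In order of mean level, Egr1 ran from A-241+IFNγ through A-241, A-485, A-485+IFNγ and DMSO to IFNγ, and no step between neighbours that was tested, namely A-241 with A-241+IFNγ, A-241 with A-485, A-485 with A-485+IFNγ and IFNγ with DMSO, passed the test.

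Fos (ENSMUSG00000021250, chromosome 12, 85473890 to 85477273), whose product forms AP-1 only as a heterodimer with a JUN protein, rose when IFNγ was present together with A-241 and was low throughout, with 7 to 47 counts per library. Its levels were 0.983, 2.09 and 1.40 CPM with IFNγ and 5.66, 7.66 and 6.39 CPM with A-241+IFNγ. Every A-241+IFNγ library therefore exceeded every IFNγ library, and the log2 fold change was 2.23 ± 0.36, or 4.68-fold (edgeR adjusted p = 0.000753). Under the same test 4.09% of all genes tested were called, and 0.543% of all genes tested were called higher. Of the 9 genes, Egr1 and Fos were called higher and Jun lower. Fos kept its call in each fit without 1 library and without both libraries that stood apart (2.48, edgeR adjusted p = 0.000133), and lost it when only the 6 libraries compared were fitted (2.21, edgeR adjusted p = 0.0268).

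In the absence of IFNγ, Fos was at 2.32, 3.79 and 4.84 CPM with DMSO and at 4.63, 3.00 and 5.90 CPM with A-241. These conditions overlapped, and the log2 fold change of 0.33 ± 0.34 did not pass the test (edgeR adjusted p = 0.595). The difference between the response to A-241 with and without IFNγ was 1.89 ± 0.50 on the log2 scale for Fos and 0.80 ± 0.27 for Egr1, and neither interaction was called (edgeR adjusted p = 0.325 and 0.894). IFNγ libraries lay below all DMSO libraries for Fos as well (log2 fold change -1.34 ± 0.38, edgeR adjusted p = 0.117). With A-485 the Fos level was 2.82, 2.86 and 1.63 CPM, and with A-485+IFNγ it was 2.68, 3.46 and 3.61 CPM, the latter above all IFNγ libraries (1.21 ± 0.38, edgeR adjusted p = 0.129, and 0.0356 without the 2 libraries).

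Jun (ENSMUSG00000052684, chromosome 4, 95049034 to 95052222), which encodes the AP-1 subunit that can pair with itself or with FOS proteins, rose with IFNγ. It was at 89.2, 79.3 and 85.0 CPM with DMSO and at 209, 243 and 200.0 CPM with IFNγ. These levels were far apart relative to their spread, and the log2 fold change was 1.36 ± 0.13, or 2.57-fold (edgeR adjusted p = 3.4e-06). Jun and Atf3 were the 2 of the 9 genes called after IFNγ, against 1.3% of all genes tested called and 1.2% of all genes tested called higher. When only the 6 libraries compared were fitted, neither was called (edgeR adjusted p = 0.0819 for Jun and 0.230 for Atf3).

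In the presence of IFNγ, Jun fell with A-241. In A-241+IFNγ cells it was at 137, 136 and 137 CPM, below every IFNγ library and above every DMSO library. The log2 fold change from IFNγ was -0.67 ± 0.13 (edgeR adjusted p = 0.00266). That call was lost in a fit to the 6 libraries compared (edgeR adjusted p = 0.135), with total counts as the scaling (-0.51, edgeR adjusted p = 0.0217), without a filter on low counts (edgeR adjusted p = 0.0541) and without A-241+IFNγ replicate 1, 2 or 3 (edgeR adjusted p = 0.0148, 0.0146 and 0.01). With A-485+IFNγ it was at 150.4, 135 and 149 CPM, close to the values with A-241+IFNγ, and the log2 fold change of -0.59 ± 0.13 from IFNγ was not called (edgeR adjusted p = 0.0233, and 0.00809 without the 2 libraries, when Egr1 and Jun were the genes called beside 2.68% of all genes). Without IFNγ, Jun was at 92.3, 94.1 and 92.1 CPM with A-241 while the A-485 libraries had 70.8, 61.8 and 60.9 CPM. Neither differed from DMSO by a call (0.14 ± 0.13 and -0.39 ± 0.13, edgeR adjusted p = 0.555 and 0.157). The response of Jun to IFNγ was 0.56 ± 0.13 under A-241 (edgeR adjusted p = 0.0912) and 1.17 ± 0.13 in the presence of A-485 (edgeR adjusted p = 5.0e-05). Its interaction of A-241 with IFNγ was -0.81 ± 0.18 and was not called by edgeR (adjusted p = 0.147), while DESeq2 called it (adjusted p = 0.000156).

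Atf3 (ENSMUSG00000026628, chromosome 1, 191170296 to 191218039) was the second gene of the group that rose with IFNγ, from 4.85, 5.68 and 9.67 CPM with DMSO to 21.4, 31.0 and 16.8 CPM. Its log2 fold change of 1.80 ± 0.31, or 3.49-fold, was called (edgeR adjusted p = 0.00297) and remained so without both libraries that stood apart (1.84, edgeR adjusted p = 0.000505). The call was lost without DMSO replicate 1 (1.62, edgeR adjusted p = 0.0277) or DMSO replicate 2 (1.70, edgeR adjusted p = 0.0240). In cells treated with A-485, the Atf3 level was 4.24, 2.67 and 2.56 CPM without IFNγ and 14.0, 13.2 and 16.0 CPM with it. The increase of 2.17 ± 0.33 was called (edgeR adjusted p = 0.00145), except without A-485 replicate 2 or 3 (edgeR adjusted p = 0.0188 and 0.0148). Atf3 and Jun were the 2 of 9 genes called in this comparison, in which 0.802% of all genes passed and 0.744% were higher.

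With A-241, Atf3 went from 6.31, 8.61 and 9.06 CPM without IFNγ to 9.79, 12.1 and 18.8 CPM with it. Every library with IFNγ was higher, but the log2 fold change of 0.76 ± 0.31 was not called (edgeR adjusted p = 1). Neither inhibitor moved Atf3 by a call: from IFNγ, the log2 fold changes were -0.75 ± 0.29 for A-241 (edgeR adjusted p = 0.143) and -0.67 ± 0.29 for A-485 (edgeR adjusted p = 0.301). From DMSO, they were 0.29 ± 0.33 and -1.03 ± 0.35 (edgeR adjusted p = 0.632 and 0.188).

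**Figure D2:**
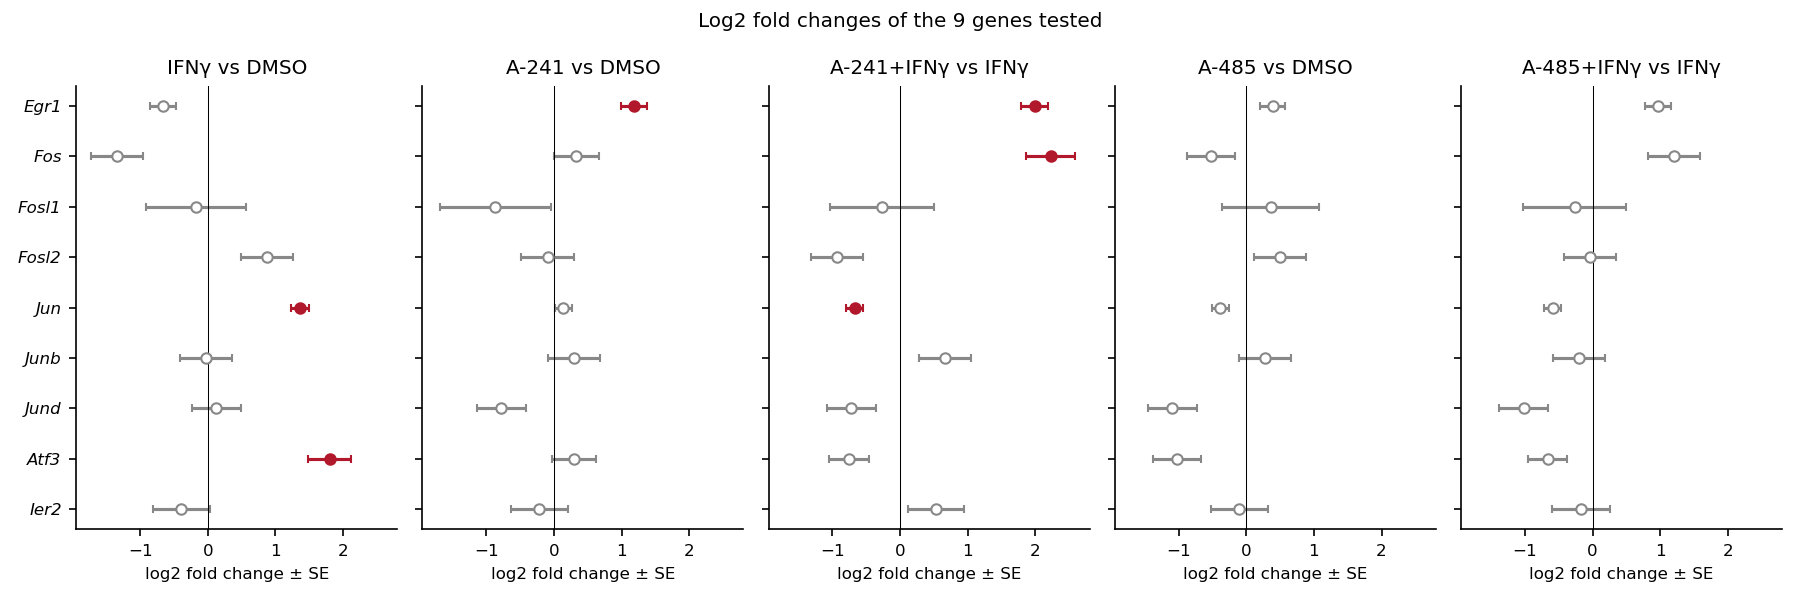
Log2 fold changes ± SE (x axes) of the 9 genes tested (y axis) in 5 comparisons, from the edgeR fit to all 18 libraries. Filled red points passed an adjusted p under 0.01, which were Jun and Atf3 after IFNγ, Egr1 after A-241, and Egr1, Fos and Jun for A-241+IFNγ against IFNγ.

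Set side by side, the inhibitors differed in value for Egr1 at the doses used, which were not matched. Egr1 was higher with A-241 than with A-485 in all libraries, by 0.80 ± 0.19 on the log2 scale without IFNγ (95% interval 0.40 to 1.20, edgeR adjusted p = 0.0622) and by 1.03 ± 0.19 with IFNγ (95% interval 0.62 to 1.43, edgeR adjusted p = 0.0106). Of the 9 genes, 0 were called by edgeR in either comparison, in which 0.368% and 0.518% of all genes passed. At an unadjusted p under 0.05 there were 4 in each, beside 975 and 778 of the 11964 genes. DESeq2 called 2 and 1, beside 1.07% and 0.928% of all genes, and limma-voom 0 and 1, beside 0.234% and 0.552%. Fos was higher with A-241 in every library too, by 0.86 ± 0.35 without IFNγ and 1.02 ± 0.32 with it (edgeR adjusted p = 0.464 and 0.277). Without IFNγ, however, A-241 replicate 2 (3.00 CPM) and A-485 replicate 2 (2.86 CPM) had 15 counts each, so that separation rests on the scaling to library size. For Atf3 the order was less uniform, with a difference of 1.32 ± 0.34 without IFNγ (edgeR adjusted p = 0.100) and -0.09 ± 0.30 with it (95% interval -0.71 to 0.54).

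A-485 alone changed 0 of the 9 genes by a call in edgeR, DESeq2 or limma-voom, with 3 at an unadjusted p under 0.05, namely Atf3, Jun and Jund, against 0.66% of all genes called. For A-485+IFNγ against IFNγ the counts were 0 in edgeR and limma-voom, 2 in DESeq2 and 5 at an unadjusted p under 0.05, with 0.552% of all genes called. Between A-241+IFNγ and A-241, 0 of the 9 were called by edgeR and limma-voom, 1 by DESeq2 and 2 at an unadjusted p under 0.05, with 0.192% of all genes called. The A-241 interaction had 0 calls among the 9 in edgeR and limma-voom, 1 in DESeq2 and 4 at an unadjusted p under 0.05, and 0.0334% over all genes. The A-485 interaction had 0 in all 3 tools and 2 at an unadjusted p under 0.05, and 0 calls over all genes. These shares of all genes are edgeR calls at an adjusted p under 0.01, and those for the DESeq2 calls are given at the end. At an unadjusted p under 0.05, edgeR had 1472 of the 11964 genes for A-485 against DMSO and 1760 for A-485+IFNγ against IFNγ. It had 447 for A-241+IFNγ against A-241, and 401 and 499 for the A-241 and A-485 interactions. Over the 9 genes tested, the median log2 fold change was 0.14 for A-241 against DMSO and -0.27 for A-241+IFNγ against IFNγ, beside 0.01 and -0.02 over all genes. TMM scaling holds the median of all genes near 0, and with total counts it was 0.12 and 0.13. All levels and fold changes here are relative to the rest of the library, and absolute amounts per cell were not measured.

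Fosl2 (chromosome 5, 32135801 to 32157842), which encodes FRA2, a FOS family protein without the transactivation domain of FOS, was called after IFNγ, and lower for A-241+IFNγ against IFNγ, once the 2 libraries that stood apart were left out. It was at 44.5, 45.9 and 15.5 CPM with DMSO and at 93.7, 24.1 and 78.3 CPM with IFNγ, the low value of each being DMSO replicate 3 and IFNγ replicate 2. With all libraries the log2 fold change after IFNγ was 0.88 ± 0.38 and was not called (edgeR adjusted p = 0.513), and without the 2 libraries it was 0.92 ± 0.15 and was called (edgeR adjusted p = 0.000909), when Atf3, Fosl2 and Jun were called beside 2.03% of all genes. A-241+IFNγ cells had 32.0, 36.2 and 34.9 CPM, within the range of A-241 alone (30.8 to 35.5 CPM) or just above it. The log2 fold change from IFNγ was -0.94 ± 0.38 with all libraries (edgeR adjusted p = 0.171) and -1.33 ± 0.14 without the 2 (edgeR adjusted p = 1.5e-06), when Egr1, Fos, Fosl2 and Jun were called beside 7.82% of all genes. In A-485+IFNγ cells Fosl2 was at 72.7, 61.9 and 57.9 CPM, above every A-241+IFNγ library (log2 difference of A-241+IFNγ from A-485+IFNγ -0.90 ± 0.39, edgeR adjusted p = 0.666).

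The same 2 libraries stood out for Junb and Jund, and less so for Ier2. Junb, which encodes a JUN protein with weaker transactivation than JUN, was at 21.8 CPM in DMSO replicate 3 and 20.6 CPM in IFNγ replicate 2, against 31.4 to 88.9 CPM in the other 16 libraries. Jund, the JUN family gene that is expressed most constitutively, was at 457 and 520.1 CPM in them, against 122 to 221 CPM elsewhere. Ier2 was at 5.87 and 2.98 CPM, against 4.75 to 14.5 CPM. Low values of Fosl1, Fosl2, Junb and Ier2 and a high value of Jund, relative to the other libraries of their condition, thus came with the high share of Gm42418, whose part in them was not tested. These libraries were also the highest of their condition for Egr1, Fos and Atf3, all called in some comparison.

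None of Junb, Jund and Ier2 was called in any of the 11 comparisons in the edgeR fit to all 18 libraries. From DMSO, Jund differed by -0.78 ± 0.36 under A-241 and -1.09 ± 0.36 under A-485. These values became -0.26 ± 0.15 and -0.57 ± 0.15 without the 2 libraries (edgeR adjusted p = 0.257 and 0.0265). Junb was highest in A-241+IFNγ cells, at 57.4, 88.9 and 75.5 CPM, and lowest in A-485+IFNγ cells, at 31.4, 54.4 and 36.7 CPM. These libraries did not overlap, but the difference of 0.86 ± 0.38 was not called (edgeR adjusted p = 0.699). For A-241 against DMSO, Junb was 0.30 ± 0.38 with all libraries and -0.07 ± 0.22 without the 2, so its direction was not stable. Ier2 was at 8.87 to 11.7 CPM with A-241+IFNγ and at 4.75 to 8.61 CPM with A-485+IFNγ, a difference of 0.70 ± 0.42 (edgeR adjusted p = 0.967).

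**Figure D3:**
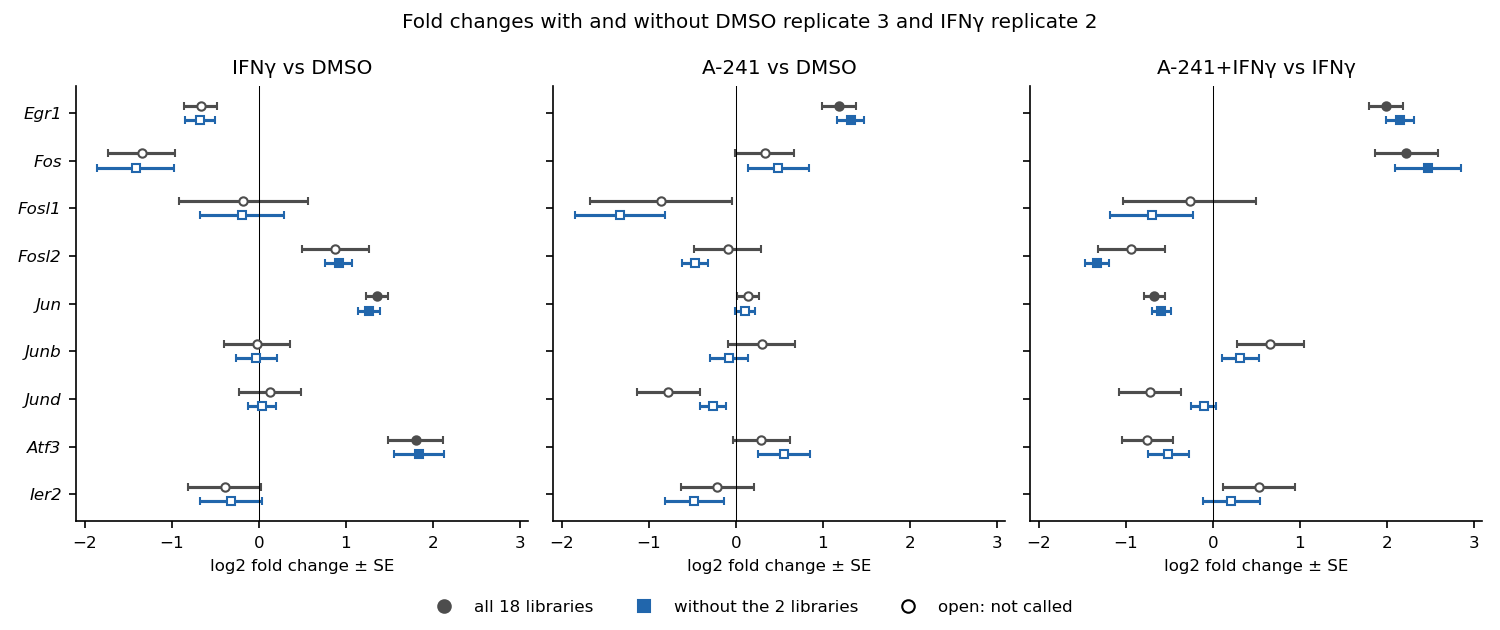
Log2 fold changes ± SE (x axes) of the 9 genes tested (y axis) in 3 comparisons, with all 18 libraries (grey circles) and without DMSO replicate 3 and IFNγ replicate 2 (blue squares). Filled symbols passed an adjusted p under 0.01; Fosl2 passed only without the 2 libraries, at 0.92 after IFNγ and -1.33 for A-241+IFNγ against IFNγ.

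Fosl1 and Fosb were at the limit of detection. Fosl1, which encodes FRA1, had 0 counts in DMSO replicate 3 and in IFNγ replicate 2, which at 3 counts allows up to 1.04 and 0.894 CPM, and 0.601 to 3.88 CPM in the other 16 libraries. No Fosl1 difference was called, and its standard errors were 0.72 or more on the log2 scale, so changes of the size seen for Egr1 were not detectable at this depth. Fosb was at or below 1.77 CPM in every library. Where no filter on low counts was applied, its log2 fold change was 0.30 ± 0.81 for A-241 against DMSO and 0.83 ± 0.90 for A-241+IFNγ against IFNγ (edgeR adjusted p = 0.983 and 0.715).

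Reads were counted without regard to strand and for each gene whose exons they touched, so overlapping genes matter for 4 of the 10. Junb shares 173 exon bases with Prdx2 on the opposite strand, which had 507 to 2214 counts per library, and reads from these bases cannot be told apart. Jun shares 232 exon bases with Junos, its antisense gene, which had 35 counts in all libraries together against 11525 for Jun. The partner of Fosl1, Ccdc85b, had 2 counts in all, and that of Jund, Gm11175, had 0. No exon overlap was found for Egr1, Fos, Fosb, Fosl2, Atf3 and Ier2.

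To place the 4 genes called in any comparison among the rest, the genes with the most similar profile of log2 CPM over the 18 libraries were taken from 7404 genes with a mean of at least 50 counts. For Egr1 they were Bloc1s5 (Pearson's r = 0.917), a subunit of a complex for lysosome-related organelles, and Fam193a (r = 0.908). Bloc1s5 came first for Fos as well (r = 0.790), followed by the splicing factor gene Prpf18 (r = 0.787). Jun was most similar to Stat2 (r = 0.944), which encodes a transcription factor of interferon signalling, and Rnf19b (r = 0.939), and Atf3 to Dcp2 (r = 0.895), an mRNA decapping enzyme, and Noct (r = 0.890). These are descriptions over libraries that share their conditions. Stat2 rose with IFNγ (2.50 ± 0.23, edgeR adjusted p = 2.5e-06) and fell with A-241+IFNγ relative to IFNγ (-1.05 ± 0.21, edgeR adjusted p = 0.00413), and Bloc1s5 rose in the latter comparison (0.72 ± 0.15, edgeR adjusted p = 0.00537).

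Most of the other immediate early genes called with A-241 were lower. Of 39 listed, 35 were tested: 9 were called lower and 1 higher for A-241 against DMSO, and 8 lower and 0 higher for A-241+IFNγ against IFNγ. Over all genes, 3.53% and 3.54% were called lower and 0.827% and 0.543% higher in these comparisons, so most calls were lower there too. Without the 2 libraries that stood apart, 13 were called lower in each, and 1 and 0 higher, with the shares of all genes called given above. The median log2 fold change of the 35 was -0.42 and -0.66, beside 0.01 and -0.02 over all genes. Myc, the growth-promoting transcription factor gene, was at 8.85, 10.4 and 21.8 CPM with DMSO and at 0.421, 0.801 and 0 CPM with A-241 (edgeR adjusted p = 0.000115). With IFNγ it went from 11.4, 26.2 and 9.97 CPM to 1.31, 1.14 and 1.24 CPM (edgeR adjusted p = 0.000306). Sgk1, a kinase gene induced by serum and glucocorticoids, fell by 2.91 ± 0.27 and 1.99 ± 0.26 on the log2 scale (edgeR adjusted p = 3.6e-06 and 0.000115).

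Transcription factor genes made up 3 more of those that fell with A-241 in both comparisons. Cebpb, a C/EBP factor of inflammatory and differentiation programs, differed by -1.28 ± 0.20 and -2.33 ± 0.20 (edgeR adjusted p = 0.000490 and 2.0e-06). Cebpb was also the 1 gene of the 35 called with A-485+IFNγ against IFNγ (-1.55 ± 0.20, edgeR adjusted p = 0.000570), beside 0.552% of all genes. Klf6 differed by -1.06 ± 0.15 and -1.49 ± 0.15, and Klf4 by -3.17 ± 0.57 and -2.55 ± 0.56. Klf4 was still called without the 2 libraries, at -2.38 ± 0.21 and -1.43 ± 0.22 (edgeR adjusted p = 1.7e-07 and 0.000114). In that setting 10 of the 35 were called lower with A-485+IFNγ against IFNγ, beside 2.68% of all genes called in either direction. Trib1, a pseudokinase gene, and Plk2, a polo-like kinase gene, were also called lower in both, by -1.81 ± 0.22 and -1.96 ± 0.22 and by -1.53 ± 0.25 and -1.25 ± 0.24. Zfp36l1, an mRNA decay factor gene, was called without IFNγ (-1.91 ± 0.30, edgeR adjusted p = 0.000764) and, without the 2 libraries, also with it (-1.18 ± 0.12, edgeR adjusted p = 7.2e-07). A test of the difference between the comparisons made 0 calls among the 35 by edgeR, DESeq2 and limma-voom, beside 0.0334%, 0.273% and 0.0167% of all genes. In edgeR 6 had an unadjusted p under 0.05, beside 401 of the 11964 genes tested. Without the 2 libraries this test called Zfp36l1, beside 0.14% of all genes. Chosen after their values were seen, Ier3 without IFNγ (-1.21 ± 0.23) and Gadd45b with IFNγ (-1.56 ± 0.33) complete the genes called lower. Both were called lower in both comparisons without the 2 libraries, by -1.08 ± 0.20 and -0.83 ± 0.20 for Ier3 and by -1.53 ± 0.22 and -1.86 ± 0.20 for Gadd45b.

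Csrnp1, a nuclear factor gene first described as induced by AXIN1 and also chosen after its values were seen, was the 1 gene of the list called higher with A-241 alone (1.83 ± 0.34, edgeR adjusted p = 0.00222). It went from 3.37, 3.47 and 0.691 CPM with DMSO to 10.7, 9.61 and 8.85 CPM, and DMSO replicate 3 was its lowest library. The increase was 1.46 ± 0.27 without the 2 libraries (edgeR adjusted p = 0.000960). Csrnp1 was also the 1 gene of the 35 called after IFNγ (2.54 ± 0.33, edgeR adjusted p = 0.000163), beside 1.3% of all genes. A-485 alone gave 0 calls among the 35 by edgeR and limma-voom, beside 0.66% and 0.652% of all genes. DESeq2 made 4 calls, all lower and beside 2.06% of all genes. At an unadjusted p under 0.05 there were 10, beside 1472 of the 11964 genes tested. From the 16 remaining libraries edgeR called 5, all lower, beside 2.46% of all genes.

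**Figure D4:**
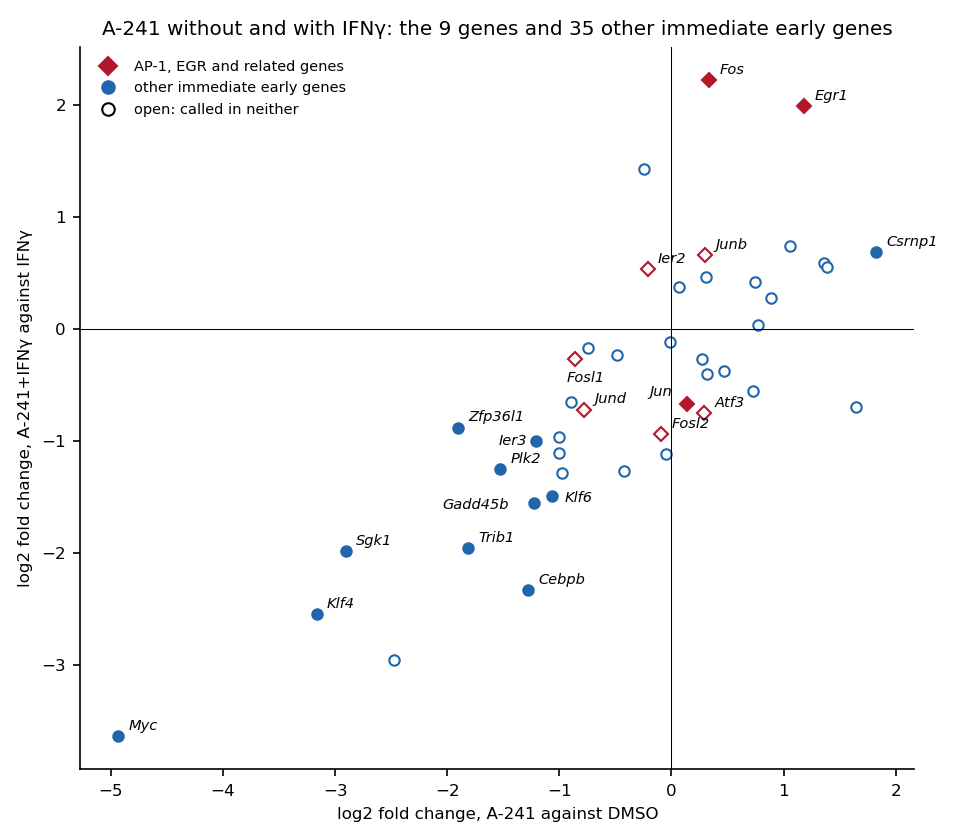
Log2 fold change with A-241 against DMSO (x axis) and with A-241+IFNγ against IFNγ (y axis) for the 9 genes tested (red diamonds) and 35 other immediate early genes (blue circles). Filled symbols were called in at least 1 of these comparisons; Egr1 (1.18 and 1.99) and Fos (0.33 and 2.23) lie at the upper right and Myc, Klf4, Sgk1, Trib1 and Cebpb at the lower left.

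Among 24 bZIP genes whose products can pair with AP-1 proteins or compete for related sites, 23 were tested. Of these, 3 were called lower with A-241 against DMSO and 4 with A-241+IFNγ against IFNγ, beside 3.53% and 3.54% of all genes. In both comparisons 0 were called higher, beside 0.827% and 0.543% of all genes. Without the 2 libraries that stood apart, 6 and 5 were lower and 0 and 1 higher. Those fits called 8.13% and 7.82% of all genes in either direction. Bach2, a repressor that pairs with small MAF proteins, went from 5.06, 4.26 and 11.4 CPM with DMSO to 0.841, 0.801 and 0.632 CPM with A-241. Nfe2l2, which encodes NRF2, fell by 0.90 ± 0.17 in each comparison. Batf2, which encodes an interferon-inducible JUN partner, had 0 counts in all 9 libraries without IFNγ, 8.48, 10.4 and 12.2 CPM with IFNγ, and 1 or 2 counts per library with A-241+IFNγ (edgeR adjusted p = 0.000306). In A-485+IFNγ cells Batf2 was at 2.11, 1.02 and 3.80 CPM. Crem, a CREB family gene chosen after its values were seen, joined Batf2 in the 2 of 23 called after IFNγ (2.14 ± 0.36, edgeR adjusted p = 0.00225). Over all genes 1.3% were called after IFNγ.

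Of 16 upstream regulators and feedback genes, among them the ternary complex factors, MAP kinases, Crebbp and Ep300, the 1 gene called with A-241 was Nab1, which encodes a corepressor that binds EGR proteins. This count of 1 of 16, without and with IFNγ, is near the 4.35% and 4.09% of all genes called. Nab1 was at 101, 99.0 and 116 CPM with DMSO and at 70.5, 74.1 and 63.4 CPM with A-241 (-0.60 ± 0.13, edgeR adjusted p = 0.00836). With IFNγ it went from 88.0, 104 and 107 CPM to 62.2, 64.6 and 56.3 CPM (-0.71 ± 0.13, edgeR adjusted p = 0.00290). Nab1 was therefore lower in every A-241 library while Egr1 was higher, and a link between these was not tested. Without the 2 libraries, Mrtfa was called lower with A-241 (-0.89 ± 0.17) and Mrtfb higher both without and with IFNγ (0.81 ± 0.17 and 0.75 ± 0.17), 2 coactivators of SRF that were named after their values were seen. Those fits called 8.13% and 7.82% of all genes without and with IFNγ. With all libraries, the median of the 16 genes was 0.39 and 0.38 on the log2 scale, beside 0.01 and -0.02 over all genes.

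The known AP-1 target genes called with A-241 were lower. Of 17 listed, 11 were tested, and 1 was called lower without IFNγ and 2 with IFNγ, beside 3.53% and 3.54% of all genes. Without the 2 libraries that stood apart 3 and 4 were lower, beside 8.13% and 7.82% of all genes called in either direction. In edgeR, DESeq2 and limma-voom 0 were higher. Over all genes edgeR called only 0.827% and 0.543% higher, so 0 of 11 does not set these genes apart. At an unadjusted p under 0.05 there were 3 and 4, beside 2781 and 2414 of the 11964 genes. Ccnd1, which encodes the G1 cyclin D1, was at 1163, 1155 and 1325 CPM with DMSO and at 266, 248 and 260.0 CPM with A-241 (-2.23 ± 0.14, edgeR adjusted p = 7.5e-08). It was called lower in all 4 comparisons of an inhibitor with its control, by 1.02 to 2.23 on the log2 scale. Vegfa, the angiogenic growth factor gene, was called lower with A-241+IFNγ (-0.88 ± 0.18, edgeR adjusted p = 0.00626). Of 7 heat shock genes that respond to handling, 0 were called by edgeR, DESeq2 or limma-voom in any comparison. Over all genes edgeR called at most 4.35% in a comparison. At an unadjusted p under 0.05 in edgeR there were at most 3, for A-241+IFNγ against IFNγ, beside 2414 of the 11964 genes. Without the 2 libraries Dnajb1 was called higher for A-241+IFNγ against IFNγ, beside 7.82% of all genes called in either direction. The summed level of the 7 was 2287 to 2948 CPM over all 18 libraries, mostly from Hsp90aa1 (1143 to 1686 CPM) and Hspa8 (729 to 1192 CPM). Dnajb1 ranged from 46.5 to 137 CPM and Hspa1b from 1.44 to 10.4 CPM, so the sum does not show that handling was even.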

How the data were processed

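Gene expression in AT3 cells was measured by QuantSeq 3′ mRNA sequencing (18 libraries, 6 conditions). Raw gene counts were deposited, without normalisation: per the study's methods and processing notes, the authors trimmed reads with cutadapt 1.7, aligned them to GRCm38 (mm10) with HISAT2 2.1.0 and counted them on exons with featureCounts, without strand and for every gene that a read touched. Identifiers were joined to GENCODE vM21 of GRCm38, and 97.5% had a symbol; the rest held 0.403% of the counts and stayed in the totals.

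Genes were kept by filterByExpr (11964), scaled with TMM factors and fitted in 1 edgeR 4.0.16 quasi-likelihood model with a mean per condition (R 4.3.3), tested per comparison and adjusted by Benjamini-Hochberg over all genes tested. A call is an adjusted p under 0.01. Levels are CPM with TMM factors, and log2 CPM used a prior count of 2. Depth was 3417167 to 7856830 counts (median 4880948), where 3 counts are 0.369 to 1.04 CPM. The fit was checked on simulated counts. Replicate numbers did not pair the libraries (same-number correlations of deviations from -0.804 to 0.477), and no libraries were duplicates.

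The 10 genes, the lists and some alternatives were chosen with earlier results of these data known. The genes named besides the 10 were those of a list called in at least 1 inhibitor comparison, up to 8 a list by smallest adjusted p, and the 2 genes most similar in profile to each called gene. Alternatives used DESeq2 1.42.0, limma-voom (limma 3.58.1), sva 3.50.0 and other settings given at the end. Values of some listed genes are not reported here. Promoter windows are from RefSeq. Computations and figures also used Python 3.11.15, pandas 2.3.3, numpy 2.4.6 and matplotlib 3.10.9.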

Additional observations from a re-analysis of the deposited data

How the results depend on the processing

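Values that were called kept their direction under the alternatives run. Others did not: leaving out 1 library at a time gave values from -0.49 to 0.69 for Jund after IFNγ and from -0.43 to 0.27 for Ier2 with A-241, and Junb changed sign as described. Of the alternative values for single genes, 170 stayed on the same side of the threshold, 22 passed it newly and 14 no longer passed it. Counts of the 9 called, together with levels under other scalings, stayed close to the full fit in 156 alternatives and moved in 30, a count being close within 1.5 times. When only the groups compared were fitted, 0 were called for IFNγ against DMSO (2 in the full fit), 0 for A-241 against DMSO (1), 1 for A-241+IFNγ against IFNγ (3), 1 for A-241 against A-485 (0) and 2 for A-241+IFNγ against A-485+IFNγ (0). Over all genes, the shares called fell from 1.3%, 4.35% and 4.09% to 0.168%, 0.676% and 0.734% where DMSO or IFNγ was compared. They rose from 0.368% and 0.518% to 1.1% and 1.27% between the inhibitors. Root mean square deviations were 0.377 to 0.755 in DMSO and IFNγ libraries and 0.226 to 0.301 with an inhibitor. The full fit shares its estimate of spread between conditions, so its p-values against DMSO or IFNγ may be too small. With 2 surrogate variables the counts were 4 for IFNγ, 2 for A-485, 5 for A-241+IFNγ against IFNγ, 4 for A-485+IFNγ against IFNγ, 4 for A-241 against A-485, 3 for A-241+IFNγ against A-485+IFNγ, 1 for A-241+IFNγ against A-241 and 3 for the A-241 interaction, while the shares of all genes called rose to 3.77%, 6.39%, 12.9%, 3.03%, 4.76%, 2.52%, 1.04% and 0.669%. DESeq2 called 2 for A-485+IFNγ against IFNγ, 2 for A-241 against A-485, and 1 each for A-241+IFNγ against A-485+IFNγ, A-241+IFNγ against A-241 and the A-241 interaction, beside 1.95%, 1.07%, 0.928%, 0.376% and 0.273% of all genes. limma-voom called 1 for A-241+IFNγ against A-485+IFNγ, total counts 1 there and 1 for A-485+IFNγ against IFNγ, and a threshold of 0.05 called 1 and 2 in these. Without both libraries that stood apart, 2 were called for A-485+IFNγ against IFNγ. The cause was not tested. Leaving out 1 library at a time gave 1 to 2 calls for IFNγ against DMSO, 2 to 4 for A-241+IFNγ against IFNγ, 0 to 1 for A-485+IFNγ against IFNγ and 1 to 2 for A-485+IFNγ against A-485. With the replicate block, although 3 of 18 libraries correlated best with their own number, 1 call was added (Egr1, A-241+IFNγ against A-485+IFNγ, 1.02, edgeR adjusted p = 0.00884), and no other member call changed.

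Total counts in place of TMM factors moved the median log2 fold change of all genes from 0.01 to 0.12 for A-241 against DMSO and from -0.02 to 0.13 for A-241+IFNγ against IFNγ, and the share of higher genes among all called in the latter from 13.3% to 24.6%. Relative to that shift Egr1 and Fos stayed called higher. Depth limited Fosl1 and Fosb, and Fos rested on 7 to 47 counts per library.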
